A study of Mus musculus with 42 samples.

Results

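The type II classical cadherins are calcium-dependent adhesion proteins that sit in the plasma membrane and bind cadherins of neighbouring cells, while their cytoplasmic tails attach to catenins and through them to actin. Type I cadherins such as E-cadherin and N-cadherin hold sheets of cells together broadly, whereas the type II genes are expressed in overlapping combinations, and in the spinal cord such combinations help motor neurons of one pool to sort together. Hox proteins, the homeodomain transcription factors that set position along the body axis, determine motor neuron column and pool identity. Binding of Hox proteins and of their cofactors MEIS and PBX was read out here at 9 type II genes: Cdh6, Cdh7, Cdh8, Cdh9, Cdh10, Cdh11, Cdh12, Cdh18 and Cdh20. A binding event, the position that the peak caller assigned to a bound site, was taken as a member when it lay in the GENCODE span of one of these genes or within 50 kb of either end. By this rule 2364 events of 19 lists, out of 1087512 events in all 21 lists, belonged to the 9 genes, and events within 100 bp of each other were merged into 865 sites.

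The 42 samples were ChIP-seq libraries of mouse Ainv15 embryonic stem cell lines that carried a single doxycycline (Dox)-inducible tagged transgene at the Hprt locus and were grown as embryoid bodies. HOXC6, HOXC8, HOXC9, HOXC10, HOXA9, HOXD9, HOXC13 and the chimeras HOXC13:C10.1, HOXC13:C10.2, HOXC10:C13.1 and HOXC10:C13.2 were profiled on day 3 of retinoic acid and smoothened agonist (SAG) after 24 h of Dox, HOXC6, HOXC9 and HOXC10 also on day 4 after 48 h of Dox, and HOXC6 and HOXC9 also in embryoid bodies given Dox for 12 h without retinoic acid or SAG. MEIS was profiled on day 3 in the V5-tagged iHoxc6, iHoxc9 and iHoxc10 lines and PBX on day 4 in the Flag-tagged iHoxc9 and iHoxc10 lines, with 1 library each. An anti-Flag precipitation from day 3 cells without a Flag tag and a day 4 input are the control samples. The lists record controls of 4 sizes (20.6, 20.3, 4.72 and 10.5 M reads), and which sample served which list is not given in the sources used here. The HOXC13:C10 chimeras join the HOXC13 N-terminal part to the homeodomain and C-terminus of HOXC10, the HOXC10:C13 chimeras are the reverse, and HOXC13:C10.2 and HOXC10:C13.2 also exchange a conserved stretch upstream of the homeodomain. The HOXC13 transgene came from the human cDNA, most HOX libraries used the Flag antibody, 1 library each of HOXA9, HOXD9 and HOXC13 came from an HA-tagged line, and 1 of the 3 HOXC10 day 3 libraries came from a V5-tagged line.

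Each list pooled the libraries of its group, from 1 to 4, so no spread between libraries could be computed and no test was made. Intervals below are 95% Wilson intervals for shares and 95% Newcombe intervals for differences of shares, and both cover counting error only. The 40 precipitated libraries held 5.04 to 32.9 M aligned reads (M, 1e6), with 0.008 to 0.527 of the reads assigned to binding. The lists ranged from 848 events for PBX in the iHoxc10 line to 128388 for HOXC9 in embryoid bodies, and this length bounds how many events any gene can show. Library depth and antibody could not be told apart from the factor.

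The 9 windows covered 4.36 Mb, which is 0.160% of the genome. Cdh12 and Cdh18 were the long members, with windows of 1240 kb and 1025 kb, and the other windows measured 228 to 492 kb. All were poor in other genes: the only other protein-coding gene in any window was Acot10, inside the Cdh12 span. The windows held 37.1% G and C against 41.7% in the genome, from 35.3% at Cdh7 to 41.7% at Cdh6.

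To show sequence at bound sites, the site shared by the most of the 16 HOX lists is printed for 8 of the 9 genes, as a stretch of the plus strand, 50 bases to either side of 1 event, of GRCm38 (mm10) from the RefSeq genome. The event taken as centre was that of the day 3 full-length list with the most reads relative to the total of its list. Merged events of other lists can lie outside the printed stretch. Of the day 3 full-length lists, only the HOXD9 event lies inside it at Cdh11 site 45, and only the HOXC8 event at Cdh10 site 53. Those of HOXC8 and HOXC10 lie outside at Cdh6 site 55, and those of HOXC10, HOXD9 and HOXC13 at Cdh7 site 34. At Cdh8 site 36 the HOXC13 event lies outside, and at Cdh20 site 39 those of HOXC6 and HOXA9. Where sites tied, the one with the lower median rank in the day 3 full-length lists was taken. Sites are numbered along each gene's window by coordinate. Capitals mark TAAT, the core recognised by most homeodomains, TTTAT and TTTAC, forms preferred by posterior Hox proteins, TGATTTAT, a joint PBX and HOX form, and TGACAG, the MEIS form, each searched on both strands, so that a reverse complement is in capitals too. Every TGATTTAT holds a TTTAT, and matches that overlap run together.
Cdh6 site 55, chr15:13212431-13212531: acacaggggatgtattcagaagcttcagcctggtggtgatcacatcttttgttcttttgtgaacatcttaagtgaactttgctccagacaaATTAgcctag
Cdh7 site 34, chr1:110118908-110119008: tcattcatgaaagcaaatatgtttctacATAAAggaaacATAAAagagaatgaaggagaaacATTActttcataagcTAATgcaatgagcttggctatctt
Cdh8 site 36, chr8:99171556-99171656: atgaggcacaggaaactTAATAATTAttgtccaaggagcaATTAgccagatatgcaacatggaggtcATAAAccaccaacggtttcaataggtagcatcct
Cdh9 site 2, chr15:16683160-16683260: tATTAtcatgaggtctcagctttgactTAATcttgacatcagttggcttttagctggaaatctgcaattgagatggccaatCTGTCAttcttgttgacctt
Cdh10 site 53, chr15:18993941-18994041: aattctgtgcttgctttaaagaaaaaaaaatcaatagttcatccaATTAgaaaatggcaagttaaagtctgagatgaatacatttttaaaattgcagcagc
Cdh11 site 45, chr8:102726804-102726904: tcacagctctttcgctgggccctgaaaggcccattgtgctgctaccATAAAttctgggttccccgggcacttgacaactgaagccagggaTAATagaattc
Cdh12 site 225, chr15:21370339-21370439: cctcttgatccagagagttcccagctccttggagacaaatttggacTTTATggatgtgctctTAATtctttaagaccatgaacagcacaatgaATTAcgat
Cdh20 site 39, chr1:104957238-104957338: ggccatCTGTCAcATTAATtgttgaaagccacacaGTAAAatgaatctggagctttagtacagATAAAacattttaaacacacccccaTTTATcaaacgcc
Every one of these 8 windows held at least 1 TAAT, and those of Cdh9 and Cdh20 also held TGACAG. Over all 865 sites TAAT was found in 83.1% and TGACAG in 7.05%. In the 38 sites with 10 or more lists the shares were 84.2% and 26.3%. Cdh20 site 39, the most widely shared, held 2 TAAT, 2 TTTAT, 1 TTTAC and 1 TGACAG.

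Most binding lay inside the genes. Of the 865 sites, 667 (77.1%) lay in introns, 84 upstream and 68 downstream of the gene, 35 within 1 kb of an annotated transcript start, 9 in an untranslated or noncoding exon and 2 in a coding exon. The gene spans themselves made up 79.4% of the windows. Sharing was uneven: 346 sites occurred in 1 list only and 38 in 10 or more. Of the 440 sites with an event of a day 3 full-length factor, 294 had 1 such factor and 7 had all 7. Those 7 sites were Cdh6 sites 43 and 56, Cdh7 site 34, Cdh11 site 45, Cdh12 sites 99 and 225, and Cdh20 site 39, so Cdh8, Cdh9, Cdh10 and Cdh18 had none. With events merged at 50 bp, 5 sites had all 7 factors. None of these sharing counts was made over the rest of the genome.

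Among the day 3 full-length factors, the 9 windows received 0.802 to 1.504 times their share of the genome. HOXC6 had 23 of 17900 events there (0.128%, interval 0.0856 to 0.193%), HOXC8 93 of 44608 (0.208%), HOXC9 156 of 74085 (0.211%, interval 0.180 to 0.246%), HOXC10 53 of 26873 (0.197%), HOXA9 104 of 62916 (0.165%), HOXD9 100 of 56400 (0.177%) and HOXC13 279 of 115879 (0.241%, interval 0.214 to 0.271%). The intervals of HOXC8, HOXC9 and HOXC13 lay above 0.160% and those of the other full-length factors on day 3 held it. In the 10000 events with the most reads of each list, which removes the difference in length, the 7 factors had 12 to 19 events at the cadherin genes, or 0.12 to 0.19%, and each interval held the genome share. HOXC10 on day 4 had 7 (0.07%, interval 0.0339 to 0.144%), below it. Over that whole list, the windows held 0.504 events per 100 kb and all genome bins of 100 kb held 0.834. Bins within 0.5 points of the windows' mean G and C content held 0.320, fewer than the windows. The part of base composition in these shares was not tested.

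**Figure D1:**
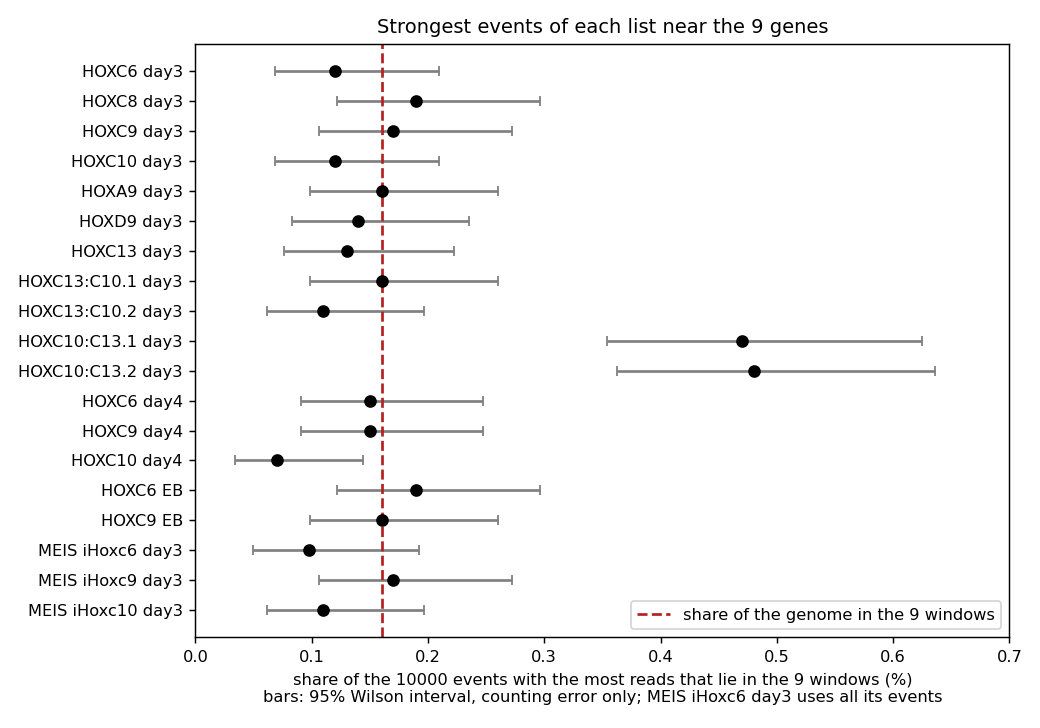
Share of the 10000 events with the most reads in each list that lay in the 9 cadherin windows, with 95% Wilson intervals for counting error. The dashed line marks the 0.160% of the genome in the windows, and the HOXC10:C13.1 and HOXC10:C13.2 lists stand to its right at 0.47% and 0.48%.

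Set against other adhesion genes by counts, the type I classical cadherins Cdh1, Cdh2, Cdh3, Cdh4 and Cdh15 had windows of 1.31 Mb in all (0.0481% of the genome) and together 16 HOXC6, 65 HOXC9 and 21 HOXC10 events on day 3. The other type II genes Cdh5, Cdh19, Cdh22 and Cdh24, with 0.666 Mb (0.0244%), had 4, 20 and 13. The catenin genes Ctnna1, Ctnna2, Ctnna3, Ctnnb1, Ctnnd1, Ctnnd2 and Jup, with 4.48 Mb (0.164%), had 42, 189 and 48. Per 100 kb, the median of the 9 genes was 2.63 HOXC9 events against 0.985 over 21911 protein-coding genes with the same flank, and all 9 were above that median. The genome-wide density of the HOXC9 list was higher than both medians, at 2.72 per 100 kb. Cdh7, Cdh8, Cdh9, Cdh10 and Cdh18 lay below that density, at 0.714, 0.823, 0.967, 0.748 and 0.897 times it. Cdh6, Cdh11, Cdh12 and Cdh20 lay above it, at 3.30, 1.31, 1.81 and 1.24 times. For HOXC10 the median of the 9 genes was 1.13 per 100 kb on day 3, with all 9 above the median over all genes, which was 0 and is exceeded by any gene with 1 event. On day 4 the HOXC10 medians were 0.388 for the 9 genes and 0.846 over all genes, with 2 members above and 7 below. These comparisons with all genes do not take base composition into account. For HOXA9 the medians were 1.85 and 1.67, with 5 members above and 4 below.

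Cdh6, a cadherin of kidney and of the early neural tube, was the member with the highest median density, relative to the genome, over the 7 day 3 full-length lists. HOXA9 and HOXD9 had 23 events each in its window, HOXC9 and HOXC13 22 each, HOXC8 16, HOXC10 12 and HOXC6 4. Relative to the genome-wide density of each list, in the same order, these were 4.07, 4.54, 3.30, 2.11, 3.99, 4.97 and 2.49 times as many per kb, with a median of 3.99 over the 7 lists. No other member had a median above 1.48. The Cdh6 window also had the highest G and C content, 41.7%. Cdh11 and Cdh20, with medians of 1.48 and 1.24, had 39.0% and 39.7%. The other members, with medians of 0.667 to 1.14, had 35.3 to 36.9%. How far composition accounts for the differences between members was not tested. Among the 10000 strongest events of each list, 6 HOXC8, 4 HOXD9, 3 each of HOXC10, HOXA9 and HOXC13 and 1 each of HOXC6 and HOXC9 lay near Cdh6, or 6.68, 4.45, 3.34 and 1.11 times the genome density. The best ranks ran from 3058 in HOXC8 to 9336 in HOXC9. MEIS showed the same crowding, with 2, 8 and 6 events in the iHoxc6, iHoxc9 and iHoxc10 lines, or 2.71, 3.91 and 5.14 times the genome density. HOXC6 in embryoid bodies had no event near Cdh6 out of 44751, which allows a share of up to 0.0067% of that list, while HOXC9 in embryoid bodies had 18. Genome-wide, the HOXC6 embryoid body list held 1.64 events per 100 kb, and the Cdh6 window measured 245 kb.

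Cdh6 was also a member bound by all 7 full-length factors close to its start. The site, chosen after its values were seen, is shown because it is the only one of the 7 sites within 1 kb of a transcript start, 0.73 kb into the gene.
Cdh6 site 43, chr15:13172895-13172995: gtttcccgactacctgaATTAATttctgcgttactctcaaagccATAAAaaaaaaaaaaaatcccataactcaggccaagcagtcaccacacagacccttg
HOXC9 had 209 reads there, HOXC10 96.7, HOXC6 49.7 and HOXC13 45.0, which placed the site at 22.2% of the HOXC9 list, 41.8% of HOXC10, 74.6% of HOXC6 and 96.4% of HOXC13, counted from the strongest. All 7 factors thus held the site without ranking it among their strongest events. A second site, at -0.99 kb from the start, was held by 10 lists, among them HOXC10 on both days. Sites 55 and 56, at -38.8 and -39.3 kb, were held by 13 and 12 lists.

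**Figure D2:**
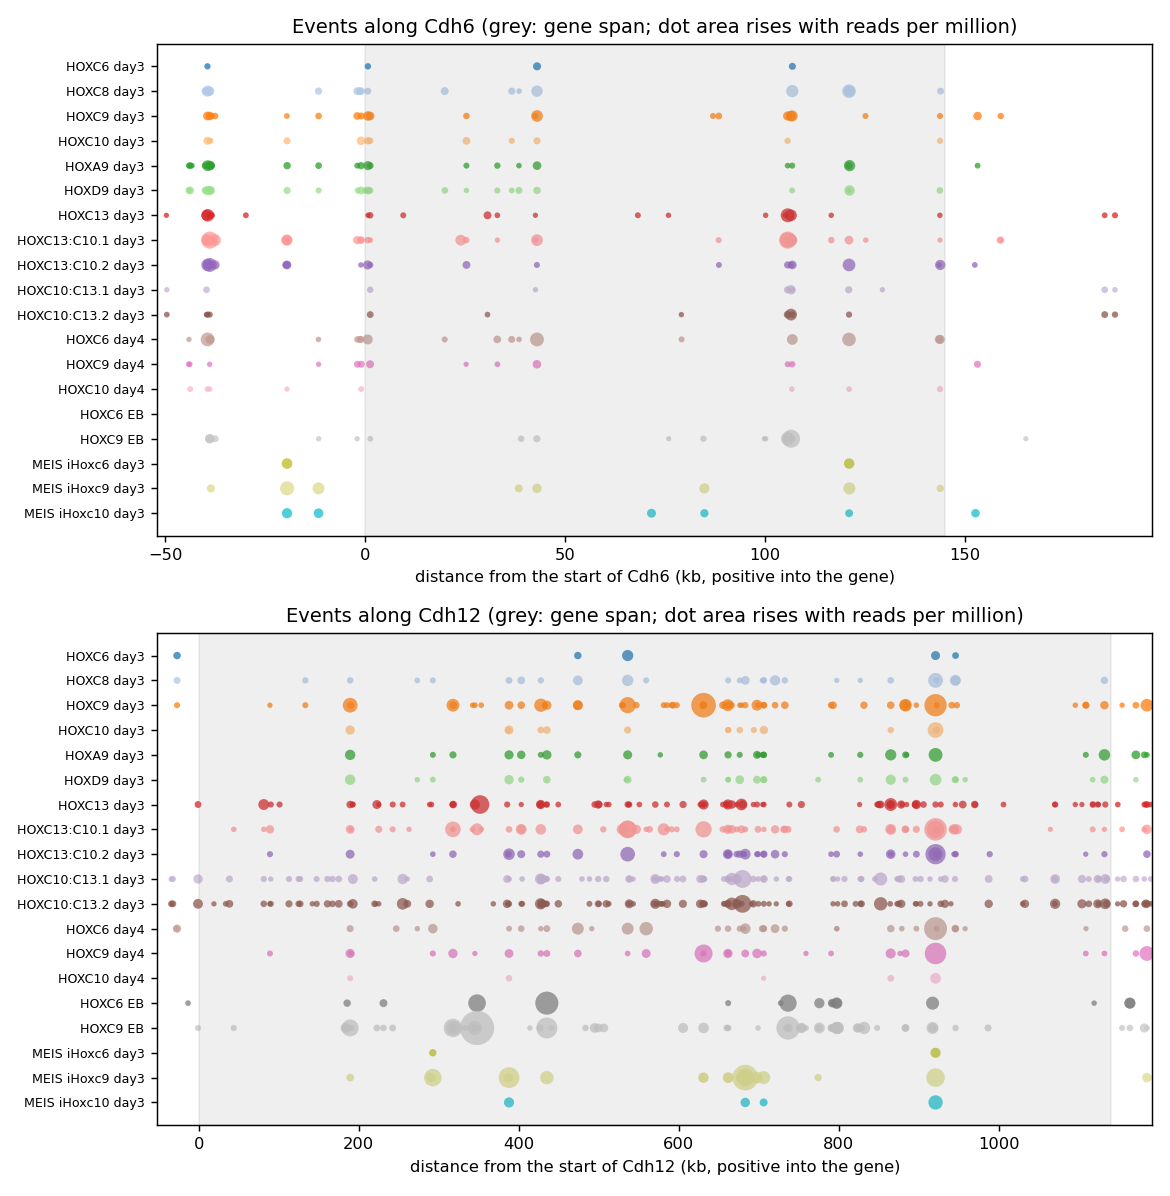
Events of 19 lists along Cdh6 (upper panel) and Cdh12 (lower panel) by distance from the gene start in kb, with dot area rising with reads relative to the list total and the gene span in grey. Near Cdh6 the lists line up at shared positions and the HOXC6 EB row is empty, while along Cdh12 the HOXC10:C13 rows are filled throughout.

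Cdh7, expressed by neural crest and by cells of the ventral spinal cord, held a strong event of HOXC6 and HOXC8. Its window held 12 HOXC13 events, 5 each of HOXC9 and HOXD9, 4 of HOXA9, 3 of HOXC8 and 2 each of HOXC6 and HOXC10. Site 13, in an intron 2.43 kb from the start, was the best-ranked event near the 9 genes in both the HOXC6 and the HOXC8 day 3 lists, and is printed for that reason.
Cdh7 site 13, chr1:109984810-109984910: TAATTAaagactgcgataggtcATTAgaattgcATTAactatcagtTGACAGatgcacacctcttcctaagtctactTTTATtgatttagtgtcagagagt
Its rank was 186 in HOXC6 (575 reads), 323 in HOXC8 (1098 reads), 4388 in HOXC9 (557 reads), 23054 in HOXC10 (54.6 reads), 24774 in HOXA9 and 23413 in HOXD9, and it was not in the HOXC13 list. It thus ranked in the upper 1.04% of HOXC6 and 0.724% of HOXC8 but at 85.8% of HOXC10. On day 4 it ranked 504 for HOXC6, the best event of that list near the 9 genes, and 13914 for HOXC9. MEIS was present there in the iHoxc6 line at rank 1808 of 8219, the best MEIS event of that line near the genes, and in the iHoxc10 line at 9501 of 12982, but not in the iHoxc9 line. The window holds 4 TAAT and 1 TGACAG.

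Cdh20, which in chick marks motor neuron pools, carried the site with the most lists. Site 39, in an intron 189 kb from the start, was present in 18 lists: 15 of the 16 HOX lists, every one but HOXC10:C13.2, and all 3 MEIS lists. HOXC10 had 582 reads (rank 240, its best near the 9 genes), HOXC9 1381 reads (rank 704), HOXA9 456 (2112), HOXD9 305 (2444), HOXC8 315 (3739), HOXC6 128 (4011) and HOXC13 173 (23732). The site was thus within the upper 1% of HOXC9 and HOXC10 but at 22.4% of HOXC6 and 20.5% of HOXC13. HOXC9 retained a high rank on day 4 (1077), HOXC10 ranked it 1767, and in embryoid bodies it stood at 10.7% of the HOXC9 list and 54.0% of the HOXC6 list. Near the start of Cdh20, at -0.222 kb, only the HOXC6 and HOXC9 embryoid body lists had an event.

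Cdh11, a cadherin of mesenchyme and bone that is also expressed in the nervous system, held strong events of HOXA9 and HOXD9, the paralogues of HOXC9. Its window held 16 HOXC13 events, 11 of HOXC8, 9 each of HOXC9 and HOXA9, 7 of HOXD9, 4 of HOXC10 and 1 of HOXC6. The best HOXA9 and HOXD9 events near the 9 genes were both here, at intronic sites 49 and 45, while the best HOXC9 event in this window ranked 19327. Site 49 is printed as the best HOXA9 event and the best MEIS event of the iHoxc9 line near the genes.
Cdh11 site 49, chr8:102742247-102742347: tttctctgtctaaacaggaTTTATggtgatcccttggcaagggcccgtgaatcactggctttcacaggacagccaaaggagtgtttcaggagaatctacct
At site 49 HOXA9 had 906 reads (rank 413), HOXD9 452 (966), HOXC9 175 (20056) and HOXC8 31.8 (43781), with no event of HOXC6, HOXC10 or HOXC13 on day 3. The HOXC8 event lies outside the printed stretch. Of the chimeras HOXC13:C10.2 ranked it 2780 and HOXC13:C10.1 57054. MEIS in the iHoxc9 line ranked it 560 with 326 reads, and MEIS in the iHoxc6 and iHoxc10 lines had no event. At site 45, HOXD9 ranked 559 and HOXA9 3895, while HOXC9 ranked 39982 and HOXC10 25229, although both were present. The HOXA9 and HOXD9 lists each pool a Flag and an HA library, and the part of the tag in these ranks was not tested.

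Cdh12, the longest member and a gene of the central nervous system, held 274 of the 865 sites. There were 96 HOXC13 events, 61 of HOXC9, 29 of HOXA9, 27 of HOXC8, 26 of HOXD9, 14 of HOXC10 and 5 of HOXC6, which for HOXC9 is 1.81 and for HOXC6 0.614 times the genome density of the list. The best HOXC9 event near the 9 genes, site 125 in an intron 631 kb from the start, ranked 489 with 1588 reads.
Cdh12 site 125, chr15:21080354-21080454: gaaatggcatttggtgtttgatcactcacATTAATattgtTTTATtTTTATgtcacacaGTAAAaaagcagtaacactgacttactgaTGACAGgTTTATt
HOXA9 ranked this site 12616, HOXC13 13838 and HOXD9 46420, and HOXC6, HOXC8 and HOXC10 had no event there on day 3. On day 4 HOXC9 ranked it 1076. Site 225, 921 kb from the start and printed above, behaved otherwise, since all 7 full-length factors, both HOXC13:C10 chimeras, all day 4 HOX lists and all 3 MEIS lists held it. Its ranks were 295 in HOXC10, 816 in HOXC9, 2097 in HOXA9, 2241 in HOXC8, 2299 in HOXD9, 4453 in HOXC6 and 57246 in HOXC13. On day 4 it ranked 321 for HOXC10, 480 for HOXC9 and 1310 for HOXC6, the best event of the day 4 HOXC9 and HOXC10 lists near the genes. Around an internal transcript start, 660.1 to 662.2 kb into the gene, lay 6 sites, of which site 137 was held by 14 lists.

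Cdh18, a brain cadherin with the second longest window, held 179 sites but was not densely bound by the full-length factors, with 65 HOXC13 events, 25 of HOXC9, 19 of HOXA9, 15 of HOXD9, 13 of HOXC8, 7 of HOXC10 and 3 of HOXC6 and a median of 0.775 times the genome density. Its best-ranked event was at 1182 in HOXC10, 1250 in HOXC9, 1767 in HOXA9 and 1873 in HOXD9. The HOXC10:C13.1 and HOXC10:C13.2 chimeras had 67 and 80 events near Cdh18, whose window held 36.5% G and C.

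Cdh8, Cdh9 and Cdh10 are brain cadherins, and Cdh9 is known for its part in hippocampal mossy fibre synapses. Each was bound below the genome density by 5 of the 7 full-length factors, with medians of 0.884, 0.667 and 0.748. Their windows held 36.9%, 35.7% and 36.8% G and C, below the genome. Cdh8 had 3 HOXC6, 11 HOXC9, 5 HOXC10 and 25 HOXC13 events, and its most shared site was held by 9 lists, with HOXC6 at rank 2830, HOXC8 at 4909 and HOXC9 at 69748. Cdh10 had 1 HOXC6, 6 HOXC9, 2 HOXC10 and 17 HOXC13 events, and no site near it was held by more than 7 HOX lists. It nevertheless held the best HOXC13 event near the 9 genes, intronic site 40 at 138 kb, ranked 1130 with 1278 reads, and no other full-length factor had an event there on day 3.
Cdh10 site 40, chr15:18956981-18957081: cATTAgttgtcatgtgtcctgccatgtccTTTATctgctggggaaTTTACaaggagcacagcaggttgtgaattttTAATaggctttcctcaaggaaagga
HOXC9 in embryoid bodies ranked this site 3494 with 1138 reads and HOXC6 in embryoid bodies 7911, and of the chimeras HOXC13:C10.2 ranked it 73313 and HOXC10:C13.2 42292. Cdh9 had 1 HOXC6, 6 HOXC9, 3 HOXC10 and 10 HOXC13 events. It was the only member with a site of 5 or more lists within 250 bp of its start. This site 10, at -0.187 kb, is printed next and was chosen after its values were seen.
Cdh9 site 10, chr15:16728519-16728619: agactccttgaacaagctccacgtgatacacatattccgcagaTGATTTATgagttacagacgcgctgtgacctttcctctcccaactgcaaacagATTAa
HOXC9, HOXC10, HOXA9 and HOXD9 held that site on day 3, with 53.1, 91.8, 109 and 115 reads, as did HOXC13:C10.2, HOXC10 on day 4, both embryoid body lists and MEIS in the iHoxc9 line, while HOXC6, HOXC8 and HOXC13 did not on day 3. For these 4 full-length lists the rank ran from 27.0% of the list for HOXD9 to 83.2% for HOXC9, and over all lists with the site from 23.01% for HOXC13:C10.2 to 93.7% for HOXC10 on day 4.

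**Figure D3:**
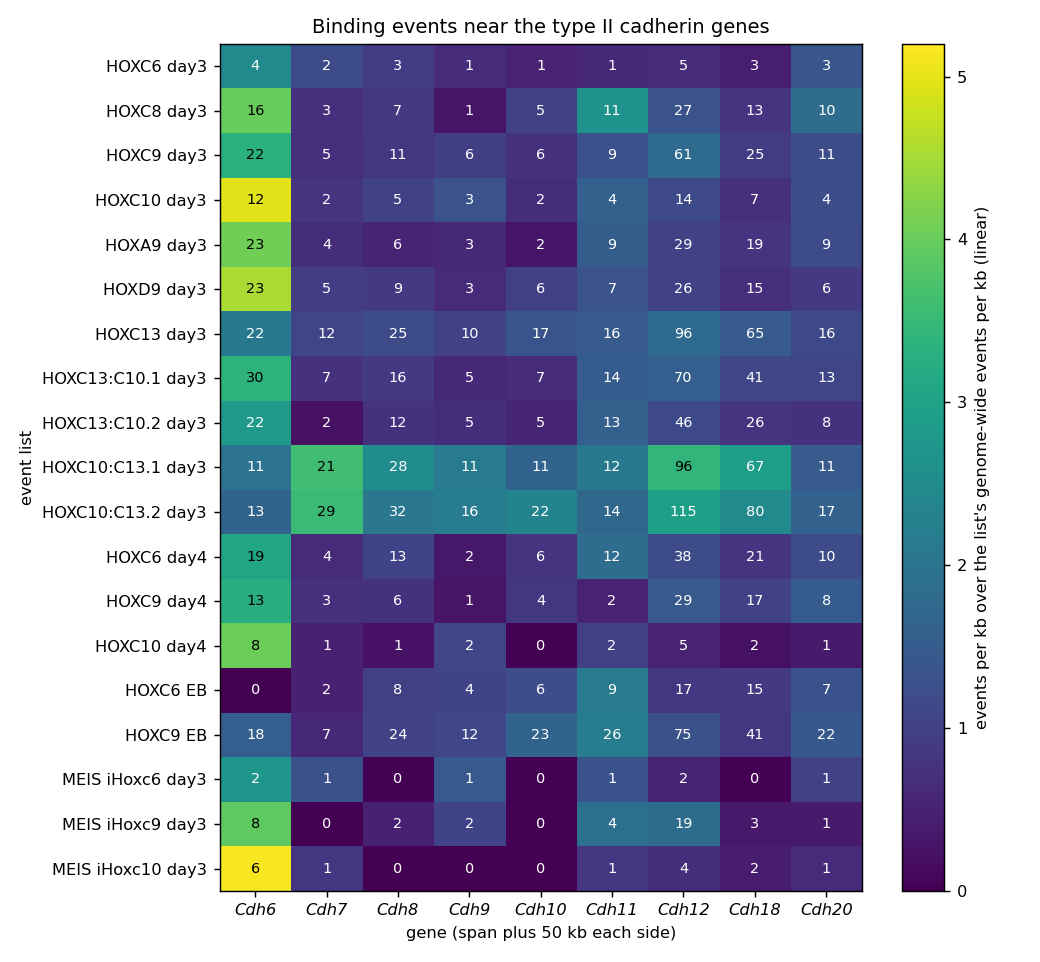
Number of events of each list (rows) near each gene (columns), with colour giving the density relative to the genome-wide density of the list. Cdh6 is bright in the full-length, HOXC13:C10, day 4 and MEIS rows, and the HOXC10:C13 rows are raised across the other genes, to 3.61 at Cdh7.

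Sharing was compared over the 42 ordered pairs of day 3 full-length lists. In 37 the interval of the members' share held the share over the whole list, in 4 it lay below it and in 1 above it. The 4 were HOXC8 events with HOXC6 (20 of 93, 21.5%, against 37%), HOXC10 with HOXC6 (9 of 53, 17.0%, against 33.5%), HOXC9 with HOXA9 (74 of 156, 47.4%, against 57.9%) and HOXC9 with HOXD9 (52 of 156, 33.3%, against 42.9%). The 1 was HOXD9 with HOXC8 (53 of 100, 53%, against 42.5%). Of the 53 HOXC10 events 40 (75.5%) had a HOXC9 event within 100 bp, against 81.3% of all HOXC10 events, and of the 156 HOXC9 events 40 (25.6%) had a HOXC10 event, against 30.4%. The difference of 49.8 points came with lists of unequal length. Both shares count the same meetings of events from either side. The interval for independent shares (34.8 to 61.3) thus does not measure the error of this difference. With both lists cut to the 26873 strongest events the shares were 37.7% of 53 and 44.4% of 45, against 48.7% and 51.0% of all events in those lists. Among the HOXC6 events 20 of 23 (87.0%) had a HOXC8 event and 17 of 23 (73.9%) a HOXC9 event, against 90.2% and 69.8% over the list, and the difference of 13.04 points had an interval from -10.4 to 35.1, with 65.2% and 47.8% at equal length, against 67.6% and 35.3% of all events. HOXC9 events met HOXC13 in 55 of 156 cases (35.3%, against 34.7% of all), which was 9.62 points more often than they met HOXC10 (interval from 19.6 more to 0.598 less), but at equal list length the order turned, with 44.4% meeting HOXC10 and 24.4% HOXC13, against 51.0% and 23.4% of all events. HOXA9 events met HOXD9 in 68.3% of 104 cases against 66.2% over the list, and HOXC9 in 71.2% against 67.4%.

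By HOXC6, HOXC9 and HOXC10 on day 3, 11 sites were held by all 3, 32 by HOXC9 and HOXC10, 6 by HOXC6 and HOXC9, 104 by HOXC9 alone, 10 by HOXC10 alone and 6 by HOXC6 alone. No site was held by HOXC6 and HOXC10 without HOXC9. As sites are chains of events, factors of 1 site need not lie within 100 bp of each other. Within 100 bp, 9 of 23 HOXC6 events (39.1%, against 50.6% over the list) had a HOXC10 event. The same classes were not counted over the whole lists. The HOXC9 list was the longest of the 3, with 74085 events against 17900 for HOXC6 and 26873 for HOXC10. The sites with all 3 were spread over 7 genes, 3 at Cdh6, 2 each at Cdh7 and Cdh12 and 1 each at Cdh9, Cdh11, Cdh18 and Cdh20. Of the 104 sites with HOXC9 alone, 47 were at Cdh12 and 19 at Cdh18.

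Across stages, 21 of the 23 HOXC6 day 3 events (91.3%) had a HOXC6 event on day 4, against 92.4% of the list, and 4 (17.4%) had one in embryoid bodies, against 18.1%. For HOXC9, 69 of 156 (44.2%) were present on day 4, against 49.4%, and 56 (35.9%) in embryoid bodies, against 40.4%. The difference of 8.33 points (interval -2.52 to 18.9) became 45.8 points when the lists were cut to the 44024 strongest events, with 67.5% and 21.7% of 83 events, against 67.1% and 25.0% of all events. For HOXC10, 16 of 53 (30.2%, interval 19.5 to 43.5%) were present on day 4, against 46.4%, the day 4 list holding 22 events near the genes and none at Cdh10. HOXC6 had 93 sites found only on day 4 and HOXC9 had 61 found only on day 3, and the lists moved the same way as a whole, HOXC6 from 17900 to 69297 events and HOXC9 from 74085 to 44024. The embryoid body lists alone held 150 sites. The strongest embryoid body event near the genes was at Cdh12 site 59, 348 kb into the gene, at rank 315 of 128388 in HOXC9 with 3681 reads and rank 2609 in HOXC6, a site that no full-length factor held on day 3 and that HOXC13:C10.1 held at rank 14047.

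**Figure D4:**
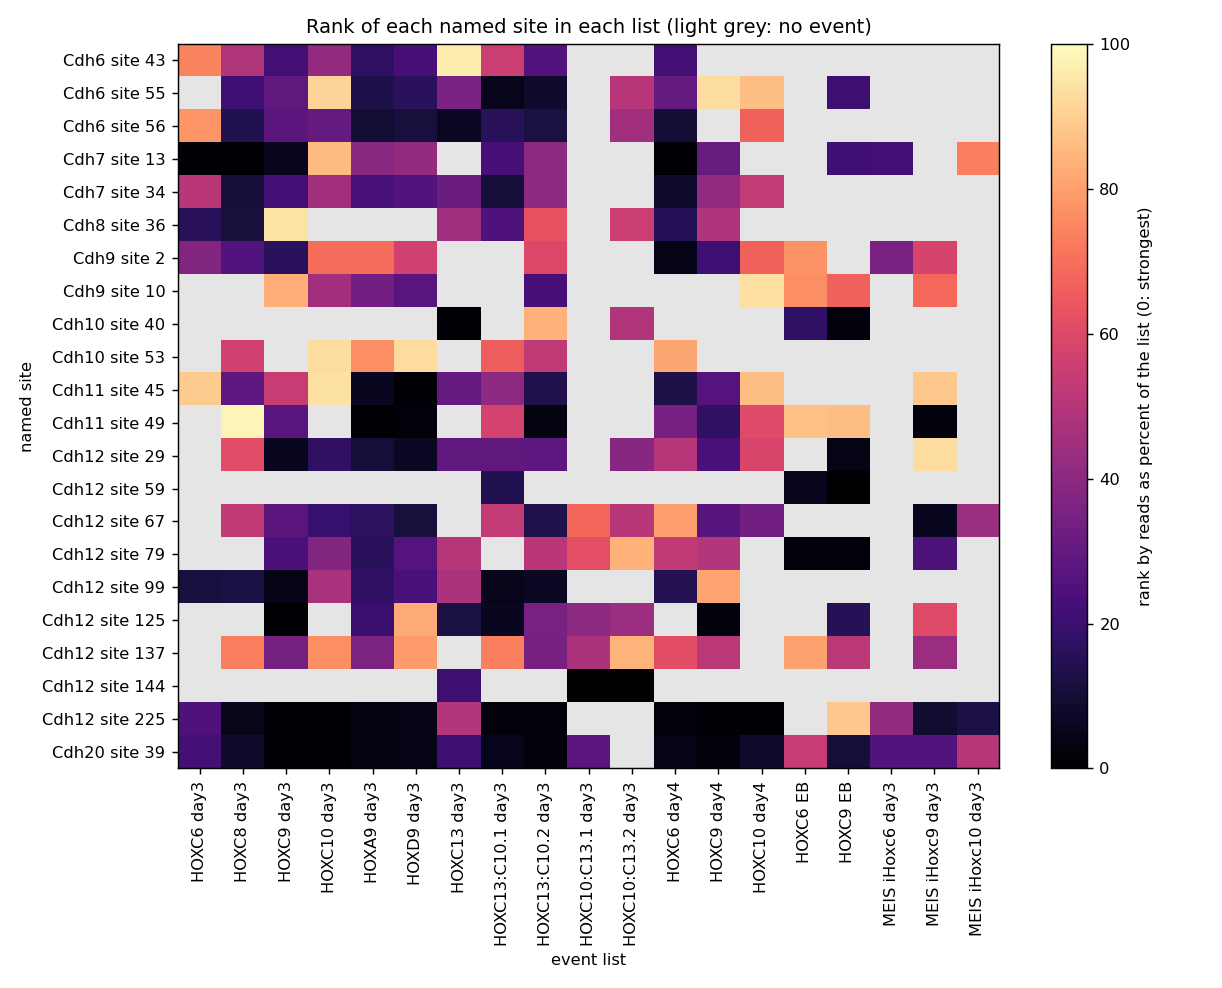
Rank by reads, as percent of the list with 0 the strongest, of each named site (rows) in each of 19 lists (columns), with light grey where the list had no event within the site. Cdh20 site 39 and Cdh12 site 225 are filled in nearly every column, and Cdh12 site 144 in 3.

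The largest departure from the genome share was that of the HOXC10:C13 chimeras, which carry the HOXC13 homeodomain. HOXC10:C13.1 had 268 of 61482 events near the 9 genes (0.436%, interval 0.387 to 0.491%) and HOXC10:C13.2 338 of 86293 (0.392%, interval 0.352 to 0.436%), while HOXC13:C10.1 had 203 of 99311 (0.204%) and HOXC13:C10.2 139 of 87315 (0.159%). Among the 10000 strongest events, HOXC10:C13.1 had 47 and HOXC10:C13.2 had 48 at the genes, HOXC13 13, HOXC10 12, HOXC13:C10.1 16 and HOXC13:C10.2 11. The intervals of both HOXC10:C13 shares, from 0.354% and 0.362% up, lay above the upper bounds of the other 17 lists with events near the genes, the highest of which was 0.297%. The excess was spread over the members: for HOXC10:C13.1 the density was 3.61 times that of the genome at Cdh7, 3.43 at Cdh12, 2.90 at Cdh18 and 2.52 at Cdh8, and lowest at Cdh20 (1.49), Cdh10 (1.65) and Cdh6 (1.99). Per 100 kb, all 9 genes were above the median of all protein-coding genes for both chimeras, and the median member stood at percentiles 95.4 and 96.3 of those genes.

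Base composition moved with this excess. In the 2368 genome bins of 100 kb whose G and C content lay within 0.5 points of the windows' mean, HOXC10:C13.1 had 4.51 events per 100 kb against 2.33 in all bins and 6.14 in the 9 windows, and HOXC10:C13.2 had 6.20 against 3.28 and 7.74. The ratio of the windows to bins of like composition was thus 1.36 and 1.25, while over the other 17 lists it ran from 1.19 for HOXC6 to 2.15 for MEIS in the iHoxc10 line. Of the HOXC10:C13.1 events near the genes 30.2% lay in repeats masked in the reference, against 29.4% over the list, and of the HOXC13 events 23.7%, against 17.3%. How far composition accounts for the chimera events at these genes was not tested.

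**Figure D5:**
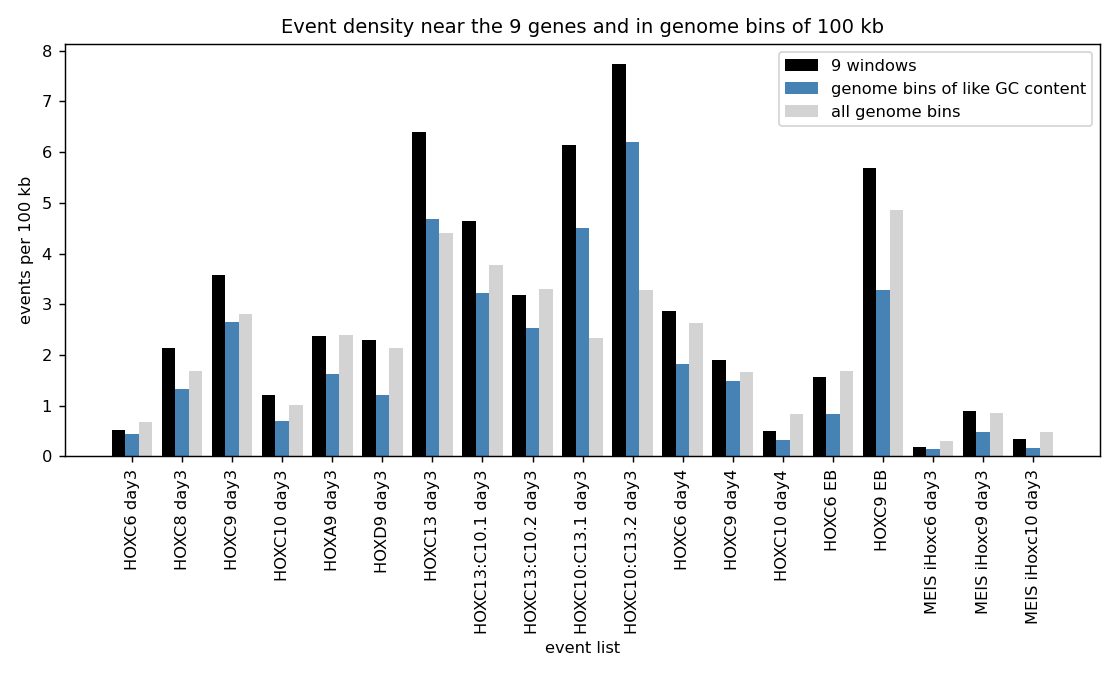
Events per 100 kb of each list in the 9 windows (black), in genome bins within 0.5 points of their G and C content (blue) and in all bins (grey). For HOXC10:C13.1 the 3 bars stand at 6.14, 4.51 and 2.33.

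Of the 865 sites 360 had a HOXC10:C13 event, 193 had no other list, and 119 of those were held by both chimeras. HOXC10:C13.1 events met HOXC10:C13.2 in 242 of 268 cases (90.3%, against 89.6% over the list). HOXC10:C13.1 events met HOXC13 in 43.7% of cases (against 49.5%). HOXC10:C13.2 events met HOXC13 in 136 of 338 cases (40.2%, against 47%) and HOXC10 in 16 (4.73%, against 7.89%), a difference of 35.5 points (interval 29.7 to 41.1) that shrank to 3.64 points, 8.18% against 4.55% of 110 events, with the lists cut to the 26873 strongest events. Over all events of those shortened lists the shares were 20.8% and 8.56%. When only the chimera lists were shortened, to their 10000 strongest events, 42 of 47 HOXC10:C13.1 events (89.4%, against 81.8% of the 10000) and 44 of 48 HOXC10:C13.2 events (91.7%, against 85.2%) near the genes met an event of the full HOXC13 list. HOXC13:C10.2 events met HOXC10 in 54 of 139 cases (38.8%, against 31.3%) and HOXC13 in 51 (36.7%, against 28.5%), a difference of 2.16 points with an interval from -9.14 to 13.4, and at equal length 71.1% of 38 events met HOXC10 and 15.8% HOXC13, against 66.2% and 19.1% of all events.

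The best-ranked event of the HOXC10:C13 chimeras near the genes, chosen here after its values were seen, was Cdh12 site 144 in an intron 679.8 kb from the start, printed because its sequence is a run of the TTTAT form.
Cdh12 site 144, chr15:21129062-21129162: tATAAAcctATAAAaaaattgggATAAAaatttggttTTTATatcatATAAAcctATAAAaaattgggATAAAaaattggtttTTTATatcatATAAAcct
The window holds 9 TTTAT matches and no TAAT. HOXC10:C13.1 ranked the site 113 with 947 reads and HOXC10:C13.2 135 with 938 reads, HOXC13 ranked it 23703 with 173 reads, and no other list held it. The control had 4.8 reads there in both chimera lists.

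Sequence content followed the factor at these genes as over the lists. TTTAT stood within 50 bp of 9 of 23 HOXC6 events (39.1%, against 38.4% of all HOXC6 events), 115 of 156 HOXC9 events (73.7%, against 62.4%), 232 of 279 HOXC13 events (83.2%, against 78.8%), 248 of 268 HOXC10:C13.1 events (92.5%, against 89.2%) and 313 of 338 HOXC10:C13.2 events (92.6%, against 89.9%). In embryoid bodies 16 of 68 HOXC6 events (23.5%, against 26.7%) had it. HOXC9 exceeded HOXC6 by 34.6 points (interval 13.18 to 52.7), against 24.0 points over the lists, and at a q-value under 1e-10 by 16.4 points (interval -12.6 to 49.5). TAAT was near 21 of 23 HOXC6 events (91.3%, against 71.1%), and windows 1 kb away from the same events had it in 60.9%. At the same offset TTTAT was near 41.0% of HOXC9 and 38.8% of HOXC10:C13.1 events. TGATTTAT was rare, in 7 of 156 HOXC9 windows (4.49%) and in none of the 193 sites held by the HOXC10:C13 chimeras alone, where the upper Wilson bound is 1.95%. Over all 865 sites the share was 2.20%. Counting every event near the genes, 6 of 268 for HOXC10:C13.1 (2.24%, against 3.44% over the list) and 9 of 338 for HOXC10:C13.2 (2.66%, against 3.10%) had TGATTTAT. Over all HOXC9 events it stood near 5.93%.

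MEIS, a cofactor that binds DNA beside Hox proteins, had 38 sites near the 9 genes, 33 of them with a full-length HOX event on day 3. The iHoxc9 line had 39 events, the iHoxc10 line 15 and the iHoxc6 line 8, in lists of 22749, 12982 and 8219 events. All 3 lines held 5 sites, 21 were found in the iHoxc9 line alone and 2 in the iHoxc10 line alone. For these counts, and for the 33 sites with HOX, the shares over all MEIS sites of the lists were not computed. Of the 39 iHoxc9 events 27 (69.2%) had a HOXC9 event within 100 bp, against 66.8% of all, and 13 (33.3%, against 21.1%) had TGACAG within 50 bp. In that line Cdh12 had 19 events, Cdh6 8 and Cdh11 4, while Cdh7 and Cdh10 had none. HOXC9 events met MEIS of the iHoxc9 line in 26 of 156 cases (16.7%, against 20.8%) and MEIS of the iHoxc10 line in 10 (6.41%, against 11%), 10.3 points apart (interval 3.17 to 17.5), and with lists of 12982 events the shares were both 20.8% of 24, against 35.0% and 24.6% of all events. Each MEIS list was 1 library, so the line and the library could not be told apart. PBX had no event near the 9 genes out of 1165 in the iHoxc9 line and 848 in the iHoxc10 line, which allows shares of up to 0.258% and 0.354%, above the genome share of the windows. A depletion of PBX was thus not detectable in lists this short. The PBX libraries held 23.3 and 21.6 M reads, with 0.009 and 0.008 of them assigned to binding.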

How the data were processed

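The 42 libraries were assigned to 23 groups from their labels. Per the submitters' processing notes and the study's methods, reads were aligned to mm10 with Bowtie 1.0.1, keeping unique alignments, Picard 2.8.2 is listed with no role, and events were called with MultiGPS at a q-value of 0.001. The authors deposited 21 event lists, 1 for each precipitated group, each with a control. Of these, 5 lists rest on 1 library and the others pool 2 to 4. Each deposited list gives the position of every event, the estimated count of ChIP reads and of control reads, the log2 fold of the signal over control and a log2 q-value. The lists' columns that compare conditions, made by the authors with edgeR 3.22.5, hold fold changes and p-values and were not used, and the separate position files repeat the events and were not used.

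Events were ranked within a list by estimated reads. An event was shared when the other list had one within 100 bp, and events were merged into sites in chains with steps of at most 100 bp. Depth was 5.04 to 32.9 M reads per library. As values were pooled, shares carry 95% Wilson intervals and differences 95% Newcombe intervals, which treat the shares as independent although some rest on the same events, and no test was made. Sharing and intervals were tested on simulated data. Motifs were searched on both strands within 50 bp. Python 3.11.15, numpy 2.4.6, pyfaidx 0.9.0.4 and matplotlib 3.10.9 were used, with gene spans from GENCODE.

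Members, gene lists and named sites were chosen with earlier results of these data known. Sites were named by a rule: per gene the site with the most HOX lists, and the best-ranked event of each day 3 full-length list. Other sites named were chosen after their values were seen. A site that the rule names is not reported here. Alternatives changed the ranking, the top list, the sharing distance, the flank, the q-value threshold, the list length and the motif distance.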

Additional observations from a re-analysis of the deposited data

How the results depend on the processing

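No paired analysis was possible because every list holds pooled values, and for the same reason no replicate could be left out. Of 90 alternative values, 67 kept their direction and lay within the interval of the reported value (counts within 1.5 times), 16 moved and 7 turned. With top lists of 5000 events HOXC6, HOXC9, HOXC10 and HOXC13 had 6, 8, 4 and 3 events near the genes, and with 20000 they had 23, 34, 33 and 29, since the list length itself changed. The difference between HOXC13:C10.2 events meeting HOXC10 and meeting HOXC13 turned to -2.16 points at 50 bp, -0.72 at 200 bp, -0.90 without a flank, -0.64 with 100 kb and -16.7 at a q-value under 1e-10, and was 55.3 with lists of equal length. At a q-value under 1e-10 there were 499 sites, 2 of them with all 7 full-length factors, HOXC9 events met HOXC10 less HOXC13 by -21.7 points, and HOXC10:C13.2 events met HOXC13 more than HOXC10 by 23.2 points. There HOXC9 exceeded HOXC6 in TTTAT by 16.4 points (interval -12.6 to 49.5), HOXC6 events met HOXC8 more than HOXC9 by 28.6 (-12.3 to 64.1) and HOXC9 day 3 events met day 4 more than embryoid bodies by 15.7 (0.826 to 29.6). With lists of equal length the difference of HOXC10 with HOXC9 and HOXC9 with HOXC10 turned to -6.71 points, and that of HOXC9 with HOXC10 and with HOXC13 turned to 20 points. The day 4 against embryoid body difference of HOXC9 became 45.8, that of HOXC10:C13.2 became 3.64 and that of MEIS became 0. Beyond what list length and threshold set by construction, the cause was not tested. For the HOXC10:C13 chimeras, alternatives chosen after seeing the data gave ratios of the top share to the genome share from 2.47 to 3.37, and 2.47 and 2.86 without the Cdh12 and Cdh18 windows.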

Other observations

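The catenin genes, whose products anchor cadherins to actin, had windows of 0.164% of the genome and held 94 HOXC10:C13.1 and 122 HOXC10:C13.2 events, or 0.153% and 0.141% of those lists. The type I classical cadherins, with 0.0481% of the genome, held 30 and 40 (0.0488% and 0.0464% of the lists), and the other type II cadherins, with 0.0244%, held 18 and 28 (0.0293% and 0.0324%). Among the 10000 strongest events the catenins had 11 and 13, the type I cadherins 5 and 5, and the other type II cadherins 3 and 4.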
